A study of Mus musculus with 117 samples.

Results

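The genes described here encode the proteins of the cytosolic ribosome. They were taken as the autosomal protein-coding genes of the mouse whose symbols follow the Rps, Rpl or Rplp naming pattern, and 71 of 20665 autosomal protein-coding genes met the rule. Of these 71 genes, 28 encode proteins of the small subunit (Rps), 40 encode proteins of the large subunit (Rpl) and 3 encode the stalk proteins Rplp0, Rplp1 and Rplp2. They lie on 18 chromosomes, 14 of them on chromosome 7, and measure 982 to 11774 bp in the RefSeq annotation. The chromatin data were maps of liver hepatocytes from females aged 12 weeks of 9 inbred mouse strains. The wild-derived lines are WSB/EiJ, CAST/EiJ and PWK/PhJ, the others are C57BL/6J, A/J, NZO/HlLtJ, DBA/2J, 129S1/SvImJ and NOD/ShiLtJ, and the labels give no treatment. Each strain had 13 libraries, with 3 mice for each of 4 histone modifications (H3K4me1, H3K4me3, H3K27ac and H3K27me3) and 1 input library, 117 libraries in all. The authors deposited 1 genome segmentation for each strain, with no value per mouse, in which every 200-bp bin carries 1 of 14 chromatin state numbers. A strain is therefore 1 value, the spread between mice is not known, and the comparisons between strains are descriptions without a test of the difference.

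A ribosome joins ribosomal RNA with one copy of nearly every ribosomal protein, so these proteins are needed in similar amounts in every growing or secreting cell. Their genes are short, are transcribed at high rates in nearly all tissues, and as a class start transcription at a cytosine within a run of pyrimidines. That run becomes the 5′ terminal oligopyrimidine tract of the mRNA, through which the mTOR pathway controls its translation. In the liver, which makes most plasma proteins, they belong to the steadily active genes of the hepatocyte.

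In every strain the 71 genes were covered mainly by 4 states. States 1, 3, 8 and 9 together took 86.7% ± 6.87 (SD over 9 strains) of the 2064 bins under the genes and 1 kb on either side, against 8.53% ± 1.18 of the bins of all autosomal protein-coding genes. Most of those genes are longer. Over the genes no longer than the longest of the 71, these states took 13.5%, 4.81%, 4.77% and 7.57% of the bins, respectively. The marks that make up each state are not stated in the sources used here, so the numbers serve only as names. State 3 lay over the start in 48 of the 51 genes with an annotated start in all 9 strains (33.5% of all genes with a start). It was mostly flanked by state 1 and gave way to state 8 and then state 9 along the gene, where these were met. State 8 was met in 417 and state 9 in 265 of 459 combinations of gene and strain. The position and order of these blocks recurred between strains, while the boundaries between states 1, 8, 9 and 14 moved.

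The start regions below are shown because the state 3 block covers or adjoins them, and because they carry the pyrimidine run and the promoter motifs that were counted. Each is 170 bases from the RefSeq promoter table (GRCm38.p6), from 150 bases before the annotated start to the first 20 transcribed bases, written 5′ to 3′ on the strand of the gene. Capitals mark a run of at least 5 pyrimidines that reaches within 2 bases of the annotated start and any match to an ETS motif (CCGGAAG), a YY1 motif (AAGATGGC), a GC box (GGGCGG) or a TATA box (TATAAA) on either strand. Rplp0 (chr5:115559317-115559486, plus strand), Rplp2 (chr7:141447501-141447670, plus strand) and Rps6 (chr4:86857348-86857517, minus strand) were chosen as examples of their classes. Rpl13a (chr7:45128726-45128895, minus strand) and Rpl11 (chr4:136053374-136053543, minus strand) differed least and most between strains among the genes with an entry, and were chosen after their values were seen.
Rplp0: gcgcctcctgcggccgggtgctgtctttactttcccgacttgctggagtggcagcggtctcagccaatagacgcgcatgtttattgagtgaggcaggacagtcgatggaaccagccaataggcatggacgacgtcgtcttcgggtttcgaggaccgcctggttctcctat
Rplp2: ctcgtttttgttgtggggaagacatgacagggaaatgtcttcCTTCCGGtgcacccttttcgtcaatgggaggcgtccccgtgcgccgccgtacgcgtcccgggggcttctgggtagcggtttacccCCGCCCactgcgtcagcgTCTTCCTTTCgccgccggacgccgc
Rps6: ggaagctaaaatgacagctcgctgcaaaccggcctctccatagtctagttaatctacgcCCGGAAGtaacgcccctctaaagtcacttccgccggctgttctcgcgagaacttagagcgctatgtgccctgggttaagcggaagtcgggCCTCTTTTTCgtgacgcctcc
Rpl13a: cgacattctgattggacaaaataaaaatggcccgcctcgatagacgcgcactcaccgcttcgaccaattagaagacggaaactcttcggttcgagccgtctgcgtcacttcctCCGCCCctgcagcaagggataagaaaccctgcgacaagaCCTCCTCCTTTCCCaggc
Rpl11: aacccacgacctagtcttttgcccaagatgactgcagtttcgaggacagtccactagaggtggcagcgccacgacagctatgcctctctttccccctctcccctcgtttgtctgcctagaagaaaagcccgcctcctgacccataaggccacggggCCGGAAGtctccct

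Rplp2 and Rps6 have a run of 10 pyrimidines over the annotated start, and Rpl13a has one of 14 that begins just after it. Rplp0 and Rpl11 have none at the annotated start. A run further from the annotated start was not counted, and whether transcription begins at that base was not examined. Over the 300-base windows of 51 ribosomal protein genes, 22 (43.1%) had a run of 5 or more pyrimidines within 2 bases of the start, compared with 22.1% of the 16457 autosomal protein-coding genes in the table, and 17 (33.3%) had a run of 8 or more, compared with 6.93%. The letters CTTTC stood within 20 bases of the start, on either strand, in 19 of the 51 windows (37.3%) and in 8.82% of all windows. On the strand of the gene alone they stood in 17 (33.3%) and in 4.97% of all windows. The ETS motif was present in 20 windows (39.2%, against 12.3% of all), the YY1 motif in 5 (9.80%, against 3.21%) and the GC box in 29 (56.9%, against 47.3%). The TATA box was the motif with the lower share, in 4 windows (7.84%, against 13.5%). None of these 4 motifs contains another. The windows held a median of 22 CpG dinucleotides, against 14 over all genes, at a similar median G+C content (58.3% and 56.7%). A match is a stretch of letters and was not examined for binding.

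Over the padded spans, state 1 was the most frequent state. Its share was lowest in A/J (30.96%), had a median of 35.4% and was highest in 129S1/SvImJ (38.9%), against 4.73% ± 0.380 over all genes. State 8 ran from 17.7% in NZO/HlLtJ through a median of 19.8% to 29.5% in NOD/ShiLtJ, against 1.41% ± 0.415. State 3 ran from 14.53% in WSB/EiJ through a median of 15.99% to 19.3% in NZO/HlLtJ, against 0.984% ± 0.0887. These 3 states were thus 7.31, 15.6 and 16.7 times as frequent, on average, as over all genes, and the lowest strain for the ribosomal protein genes lay above the highest strain for all genes in each of them.

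State 9 had a wider spread. It covered 5.52% of the bins in PWK/PhJ, a median of 13.6% and 18.99% in NOD/ShiLtJ, compared with 1.399% ± 0.579 over all genes. State 14, which covered 68.9% ± 1.70 of the bins of all genes, covered 3.05% in NOD/ShiLtJ, a median of 6.78% and 18.7% in PWK/PhJ. State 13 was nearly missing, at 0.0484% ± 0.114 against 9.94% ± 1.22, and state 7 was found in no bin of these genes in any strain. States 2 and 4 were also lower than over all genes in 9 of 9 strains, at 0.867% ± 0.476 against 3.83% ± 0.511 and at 1.56% ± 0.737 against 3.87% ± 0.847.

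Ribosomal protein genes are short, with a median annotated length of 3175 bp against 17491 bp for all genes, and this bears on such shares because the start makes up more of a short gene. Against the 8163 autosomal protein-coding genes no longer than the longest of them (11774 bp), state 3 was 3.41 times, state 8 4.61 times, state 1 2.56 times and state 9 1.82 times as frequent, in 9 of 9 strains each. State 6 was not separated in this way: it covered 2.54% ± 1.87 of the bins of the 71 genes and 1.98% ± 0.406 of those of the short genes, and was higher in 5 of 9 strains. The padded span of 27 of the 71 genes also meets another protein-coding gene. Over the 44 other genes state 1 took 32.1%, state 3 15.3%, state 8 21.7% and state 9 14.2% of the bins.

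**Figure D1:**
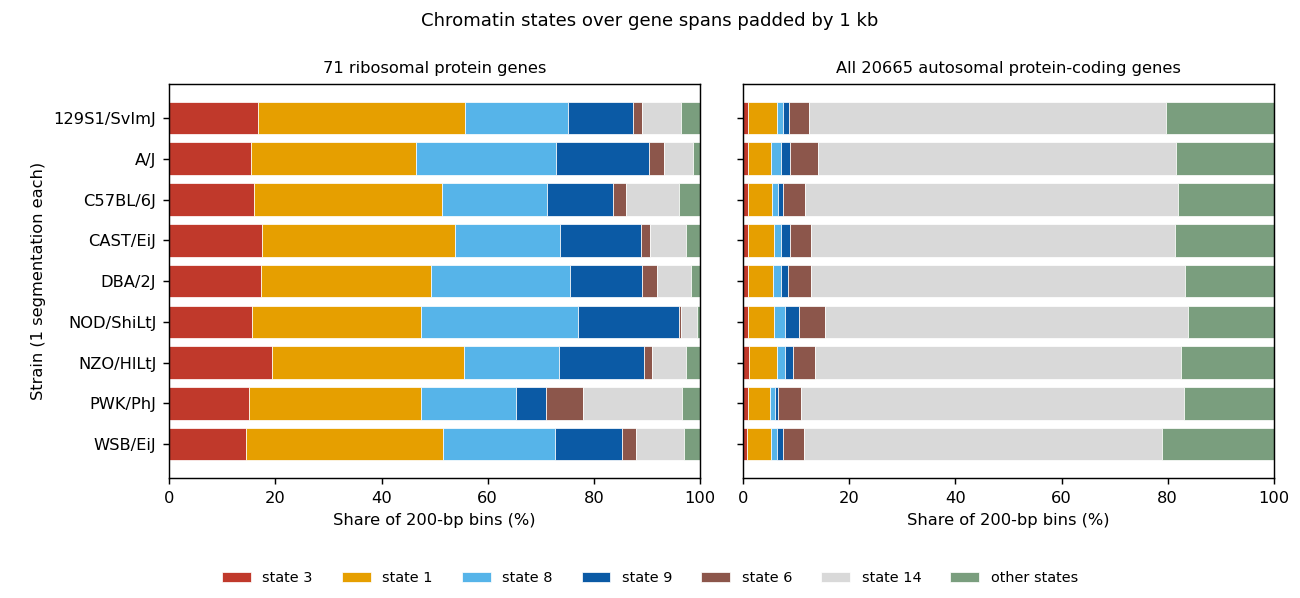
Share of 200-bp bins (horizontal axis, percent) in each state for the 9 strains (vertical axis), over the padded spans of the 71 ribosomal protein genes (left) and of all 20665 autosomal protein-coding genes (right). States 1, 3, 8 and 9 fill between 70.9% (PWK/PhJ) and 95.98% (NOD/ShiLtJ) of the left bars, while state 14 fills 68.9% of the right bars on average.

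All 71 genes had state 3 in all 9 strains, where 45.9% of all autosomal protein-coding genes did, and 32.2% of those no longer than the longest of the 71. State 8 was present in all 9 strains in 55 of the 71 genes (36.3% of all genes). State 9 was present in all 9 strains in 22 of 71, or 30.99%, which is nearer to the 24.0% of all genes. The 4 states together were present in all 9 strains in 19 of 71 genes, or 26.8% (15.8% of all genes). No bin in state 14 was found in any strain in 29 of the 71 genes (5.45% of all genes), among them Rps6 and Rps12 of the small subunit and Rpl13a and Rpl36 of the large subunit. State 13 appeared in at least 1 strain in the padded spans of 2 genes, Rpl19 and Rpl38 (44.0% of all genes), and in both only in the flanks.

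By subunit, state 3 took 17.5% ± 2.04 of the bins of the small-subunit genes and 15.9% ± 1.21 of those of the large-subunit genes, and state 8 took 22.9% ± 4.50 and 21.0% ± 4.06. State 9 took 10.01% ± 3.57 of the small-subunit and 15.6% ± 4.11 of the large-subunit bins, state 6 4.02% ± 2.29 and 1.63% ± 1.83, and state 4 2.25% ± 1.39 and 1.19% ± 0.660. The SDs are over the same 9 strains, and the difference between subunits was not tested. The 3 stalk genes had state 9 in 22.4% ± 8.70 and state 3 in 12.8% ± 2.13 of their bins, a set too small for more than its values.

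The order of states along the gene was read from the start in the 51 genes with an annotated start and strand. The bin that holds the start was in state 3 in 96.7% ± 1.39 of these genes, against 40.4% of all autosomal protein-coding genes with a start. The exceptions to state 3 in all 9 strains were Rpl22, which has a paralogue, Rpl22l1, and had states 8, 9 or 1 there in all 9 strains, Rpl38, which had state 9 there in 5 strains, and Rpl5, which had state 9 in DBA/2J. Rpl22 has 2 annotated starts, of which the outer one was used, and its state 3 block lay further along the gene.

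Around the start, the state 3 block, counted where state 3 lay in the start bin or next to it, typically ran from 200 bp upstream of the start bin to 600 bp past that bin's upstream edge, and its median length was 833 bp ± 70.7 (SD over 9 strains, 50 genes). The next state downstream was state 1 in 50 of 50 genes in every strain, and the next state upstream was state 1 in 45 to 49 of 50. The downstream state 1 block had a median length of 878 bp ± 97.2. It was followed by state 8 in 36 genes in NZO/HlLtJ, the lowest count, and in 49 in NOD/ShiLtJ, the highest. At 1000 bp into the gene 93.03% ± 4.61 of the 51 genes were in state 1, against 30.3% of all genes, and at 2000 bp 60.3% ± 10.95 were in state 8, against 15.8%.

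State 8 was first met at a median of 1544 bp ± 88.2 and state 9 at 2633 bp ± 187. Over the 258 combinations of gene and strain in which both followed the start, state 8 came first in 250. State 9 was met in 29.4 ± 5.22 of the genes, with 17 in PWK/PhJ and 34 in CAST/EiJ and NOD/ShiLtJ. State 14 was reached within the padded span in 13.3 ± 5.87 genes, with 5 in NOD/ShiLtJ and 26 in PWK/PhJ, and in PWK/PhJ it began earliest, at a median of 3200 bp. No gene had its start bin or any of the next 5 bins in state 14 in any strain, while state 14 held the start bin of 24.8% of all genes. State 9 was also frequent upstream, in 41.6% ± 13.2 of the genes at 2000 bp before the start, against 16.8% of all genes.

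**Figure D2:**
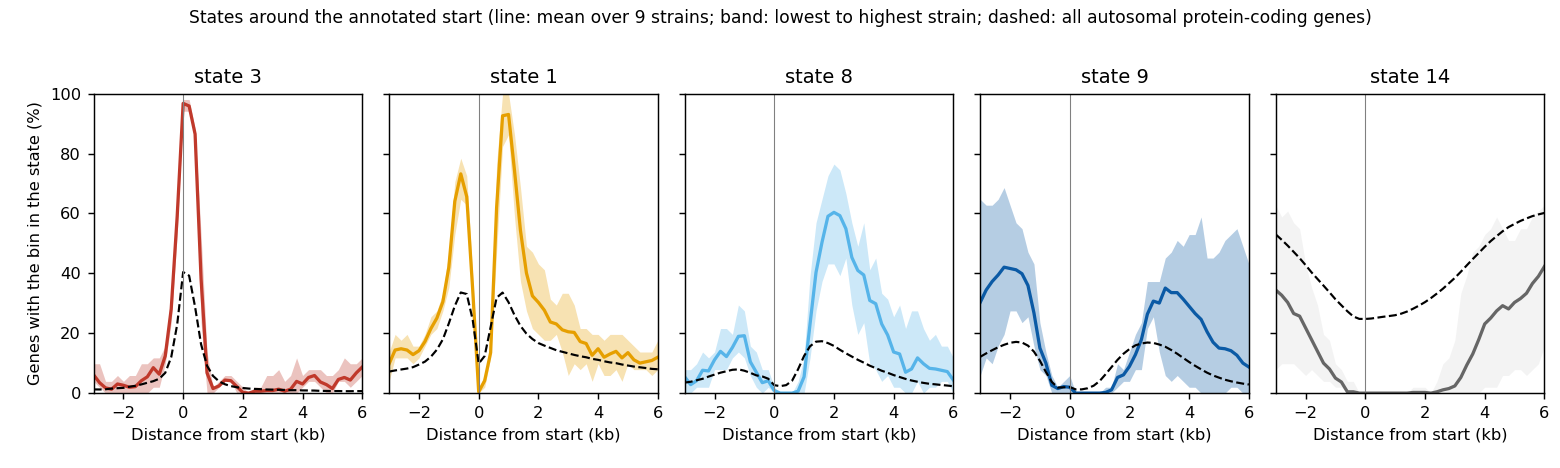
Percentage of genes whose bin is in states 3, 1, 8, 9 or 14 (vertical axes) by distance from the annotated start in kb (horizontal axes), for 51 ribosomal protein genes (coloured line, mean of 9 strains, with a band from the lowest to the highest strain) and all autosomal protein-coding genes with a start (dashed). State 3 peaks at the start (96.7%), state 1 on both sides of it, state 8 near 2000 bp (60.3%) and state 9 beyond that.

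Read as steps between neighbouring blocks, 95.2% of the exits from state 3 in these spans led to state 1. State 1 in turn bordered state 3 in 48.0% and state 8 in 46.8% of its exits. State 8 led to state 9 in 45.4% and back to state 1 in 41.5%. State 9 bordered state 8 in 54.4% of its exits and state 14 in 19.9%. State 14, where it occurred, was left through state 6 in 46.6%.

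Rplp2, a stalk protein that with Rplp1 recruits the translation factors, is an example. In 129S1/SvImJ its span read, from upstream, 600 bp of state 1, 800 bp of state 3, 1000 bp of state 1, 1600 bp of state 8 and 1800 bp of state 9. In NZO/HlLtJ the same blocks measured 600, 800, 800, 1200 and 2400 bp. PWK/PhJ had 800 bp of state 1, 600 bp of state 3, 400 bp of state 1, 1800 bp of state 8 and 600 bp of state 9, and then 1600 bp of state 14. State 14 also followed state 9 in C57BL/6J (400 bp) and WSB/EiJ (600 bp). CAST/EiJ departed from the order, with 400 bp of state 1 between blocks of state 8 and with states 3 and 1 at the end. In A/J and NOD/ShiLtJ states 8 and 9 alternated, and C57BL/6J ended with 200 bp of state 4.

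Rps6, the small-subunit protein phosphorylated by the S6 kinases below mTOR, kept its 5′ part and lacked the tail. Its state 3 block was at least 1000 bp long in every strain, with a mean of 1111 bp ± 145, and state 1 covered 60.9% of its bins on average. State 9 was found in it in CAST/EiJ, in a block of 600 bp. State 14 was found in none of the 9 strains.

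**Figure D3:**
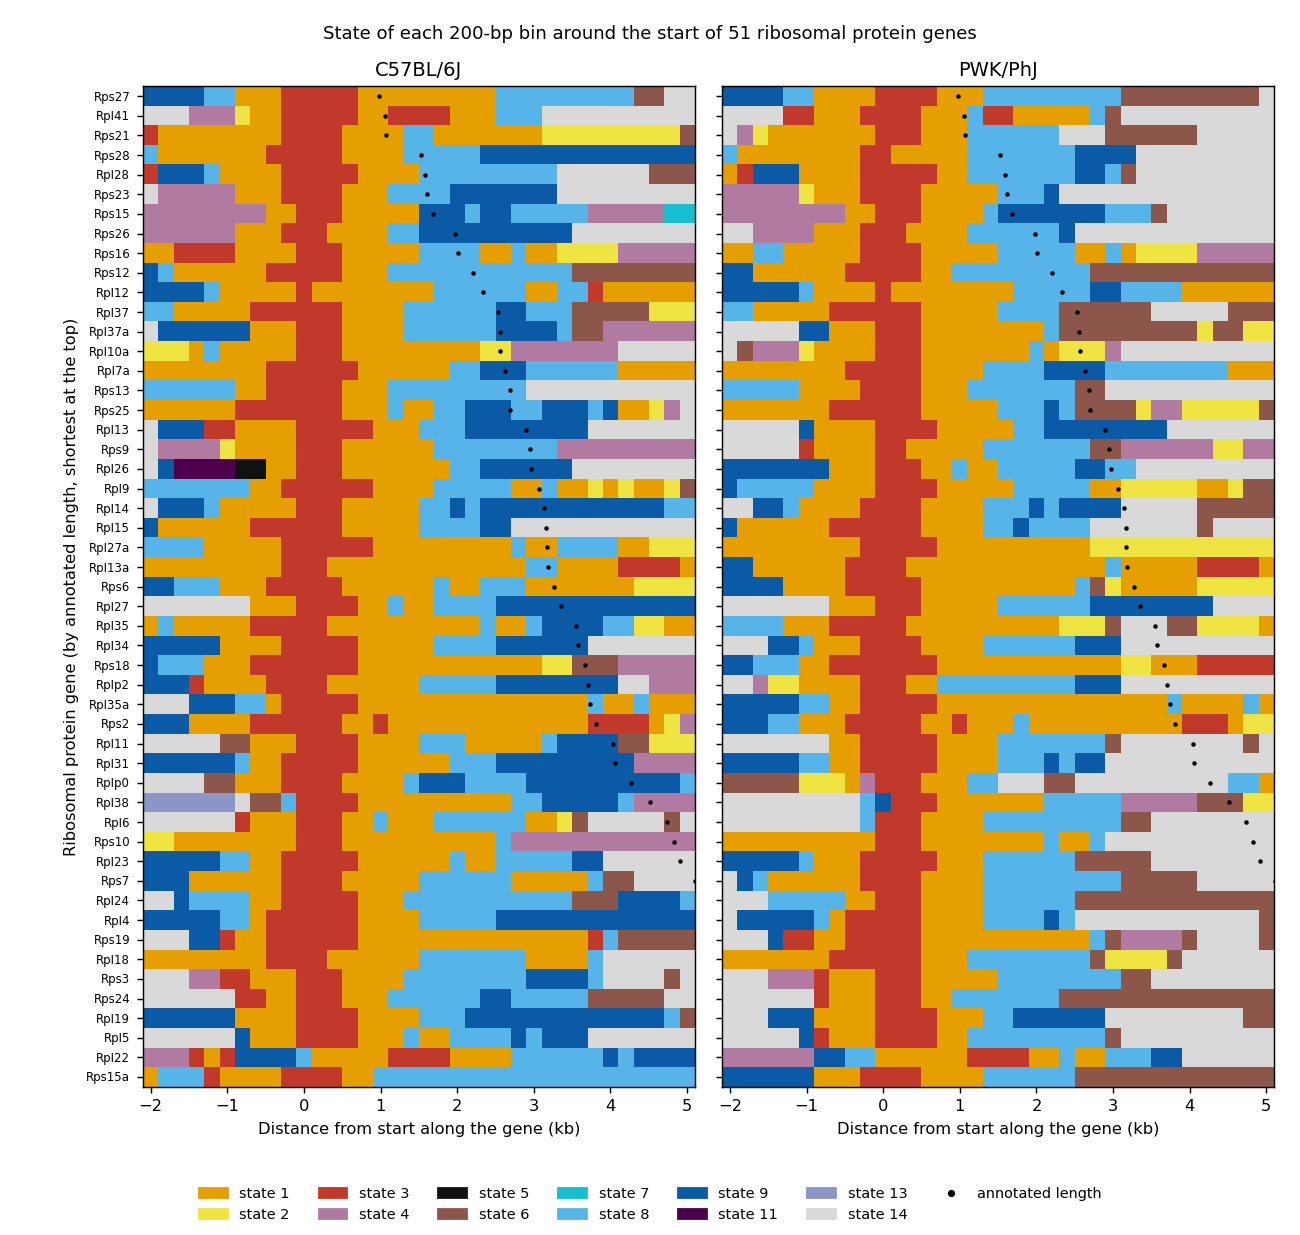
State of each 200-bp bin (colour) by distance from the start along the gene in kb (horizontal axis) for the 51 oriented ribosomal protein genes (vertical axis, shortest at the top) in C57BL/6J (left) and PWK/PhJ (right), with the annotated length as a black dot. The state 3 block and its state 1 flanks line up in both strains, and states 6 and 14 reach closer to the start in PWK/PhJ.

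State 3 varied in extent between genes. The longest uninterrupted run of state 3 that touches a gene's padded span, which need not be the block at the start, had a median of 822 bp over the 71 genes (each averaged over strains), and 69 of 71 lay between 400 and 1600 bp. Rpl7, a large-subunit protein, had the longest, from 1400 bp in C57BL/6J through 2200 bp in most strains to 2600 bp in CAST/EiJ. Rps18 and Rps25 followed with 1444 bp ± 133 and 1311 bp ± 145, and Rps2, which lies near the entry of the mRNA channel, with 1200 bp ± 265. The spans of Rps18, Rps25 and Rps2 each meet 2 neighbouring genes, and that of Rpl7 meets none, but the run of Rpl7 reaches beyond its padded span in all 9 strains.

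Rpl12, at the base of the stalk, had the shortest run, 200 bp in 6 strains and 400 bp in CAST/EiJ, NZO/HlLtJ and WSB/EiJ. Rpl23a, at the exit of the peptide tunnel, had 400 bp in 8 strains and 800 bp in DBA/2J. Rps24, mutated in some families with Diamond-Blackfan anaemia, had 600 bp in all 9 strains. Rplp1 had 600 bp in 6 strains, 800 bp in CAST/EiJ and NZO/HlLtJ and 200 bp in PWK/PhJ. The longest run in Rps9 was 400 bp in PWK/PhJ and 1800 bp in NZO/HlLtJ, where it was a separate block downstream and the block at the start measured 600 bp.

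**Figure D4:**
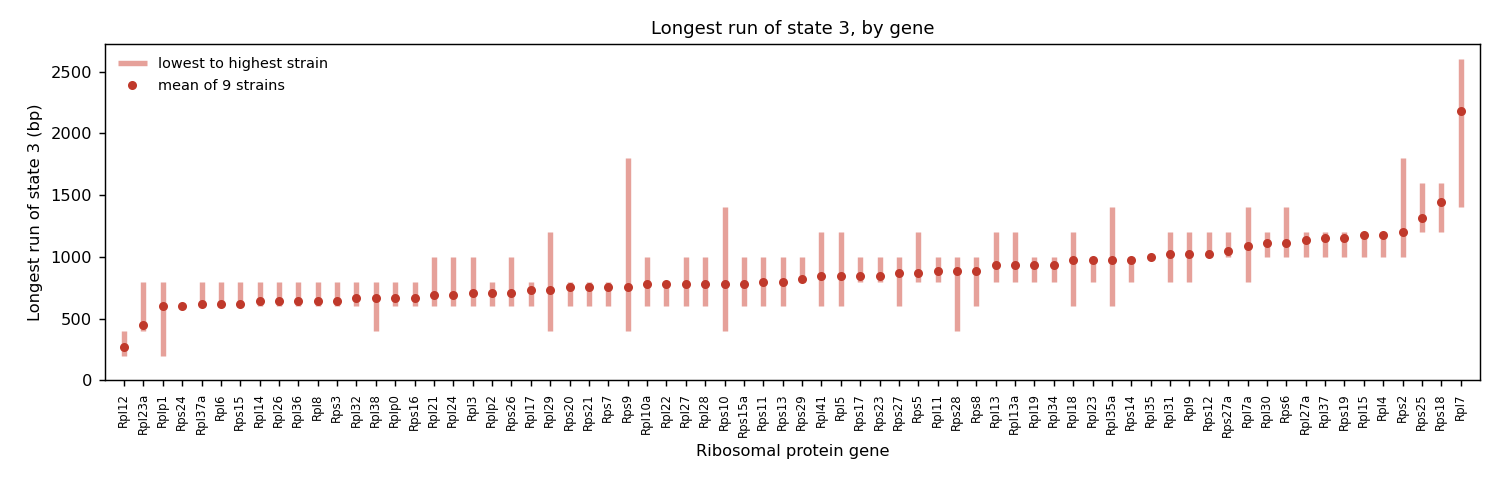
Longest uninterrupted run of state 3 in bp (vertical axis) for 70 of the 71 ribosomal protein genes (horizontal axis), with points for the mean of 9 strains and bars from the lowest to the highest strain. Most means lie between 600 and 1200 bp, with Rpl12 lowest and Rpl7 highest.

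Between strains, state 3 was the steadiest part of these genes. A bin in state 3 in 1 strain was in state 3 in another in 88.3% ± 5.61 of cases, against 79.3% over all genes. The same recurrence was 83.3% ± 3.62 for state 1 (79.0% over all genes), 68.3% ± 4.97 for state 8 (58.4%) and 62.6% ± 5.14 for state 9 (60.9%). State 14 recurred in 66.5% ± 15.2, below the 90.98% over all genes, and state 2 in 16.8% ± 4.88, below 59.7%. Of the 2064 bins, 831 (40.3%) had the same state in all 9 strains, below the 56.97% over all genes, where state 14 prevails. Of the 831, 398 were in state 1, 256 in state 3, 110 in state 8, 38 in state 14 and 29 in state 9.

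Where 2 strains differed, the exchange was mostly between blocks that adjoin along the gene. States 1 and 8 accounted for 27.0% of the differing bins over the 36 strain pairs, states 8 and 9 for 15.4%, states 9 and 14 for 14.3% and states 1 and 3 for 9.95%. The share of differing bins was lowest between A/J and NOD/ShiLtJ (20.1%) and highest between NOD/ShiLtJ and PWK/PhJ (37.9%).

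For a single gene, the percentage of bins that differed between 2 strains, averaged over the 36 pairs, had a median of 25% and ran from 4.69% to 45.1%. The median was 13.9% when a match in a neighbouring bin was counted as the same state. The median over all genes was 19.8%, and 58 of the 71 genes lay above it, but genes differ in how many of their bins are in state 14 in every strain, which differ in no pair: the median share of other bins was 100% for the ribosomal protein genes and 62.5% for all genes. With the bins in state 14 in every strain left out, the median was 25.2% for the ribosomal protein genes, 34.7% for all genes and 32.3% for the short ones, so the direction turns with the bins counted. Longer members of the family had more state 14 (Spearman rho 0.635 across the 71 genes) and a larger difference between strains (rho 0.492), both descriptive, since the genes share the same 9 segmentations.

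Rpl36 (chr17:56610094-56614246, GRCm38.p6) differed least, with 4.69% of its bins. It was covered by states 1 and 3 apart from 1 bin of state 8 in A/J and in WSB/EiJ, and it had a state 3 block near each side of its span, which meets Lonp1 and Micos13. Rpl13a, a large-subunit protein that also takes part in interferon-induced translational silencing, differed in 10.3%. In all 9 strains its span read state 1, state 3, a long block of state 1, and a last bin of state 3, and in 7 strains 200 to 800 bp of state 8 interrupted the long block. Rps12 differed in 10.9%, with a state 3 block of 1000 bp in 8 strains and 1200 bp in DBA/2J, followed by state 1 and then 1800 to 2600 bp of state 8, after which PWK/PhJ had 600 bp of state 6. Rps28, Rpl17 and Rpl37 came next, with 13.3%, 13.6% and 14.6%.

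Rpl3 (chr15:80077781-80083406), which reaches towards the peptidyl transferase centre, differed most, in 45.1% of its bins. State 6 covered 5% of it in 129S1/SvImJ and NOD/ShiLtJ and 40% in PWK/PhJ, state 8 covered 7.5% in NZO/HlLtJ and 45% in NOD/ShiLtJ, and state 2 covered 22.5% in 129S1/SvImJ and none in 5 strains. Its state 3 share stayed between 7.5% and 15%. Rpl11, which binds the p53 regulator Mdm2 when ribosome assembly is disturbed, differed in 43.7%, Rpl6 in 43.5%, Rps10 in 41.5%, Rpl23 in 40.6% and Rplp0 in 39.8%. The state 3 share of Rpl23 was 13.9% in 8 strains and 11.1% in A/J, so its differences lay in other states. That of Rps10 ran from 5.71% in WSB/EiJ to 34.3% in NZO/HlLtJ.

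In Rplp0, which anchors the other stalk proteins, state 9 covered 25% to 46.9% of the bins in 8 strains and none in PWK/PhJ, where state 14 covered 40.6%. State 14 was found in Rplp0 in no other strain. Rps10 had the same contrast with state 4 added: state 9 was at 0 in C57BL/6J, where state 4 covered 45.7%, and at 0 in PWK/PhJ, where state 14 covered 42.9%, and it reached 42.9% in NOD/ShiLtJ. Rpl11 had state 14 in 35.5% of its bins in PWK/PhJ and in at most 6.45% in any other strain. For Rpl6 the difference was one of degree, with state 14 at 45.7% in PWK/PhJ, 34.3% in CAST/EiJ and 0 in NOD/ShiLtJ.

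**Figure D5:**
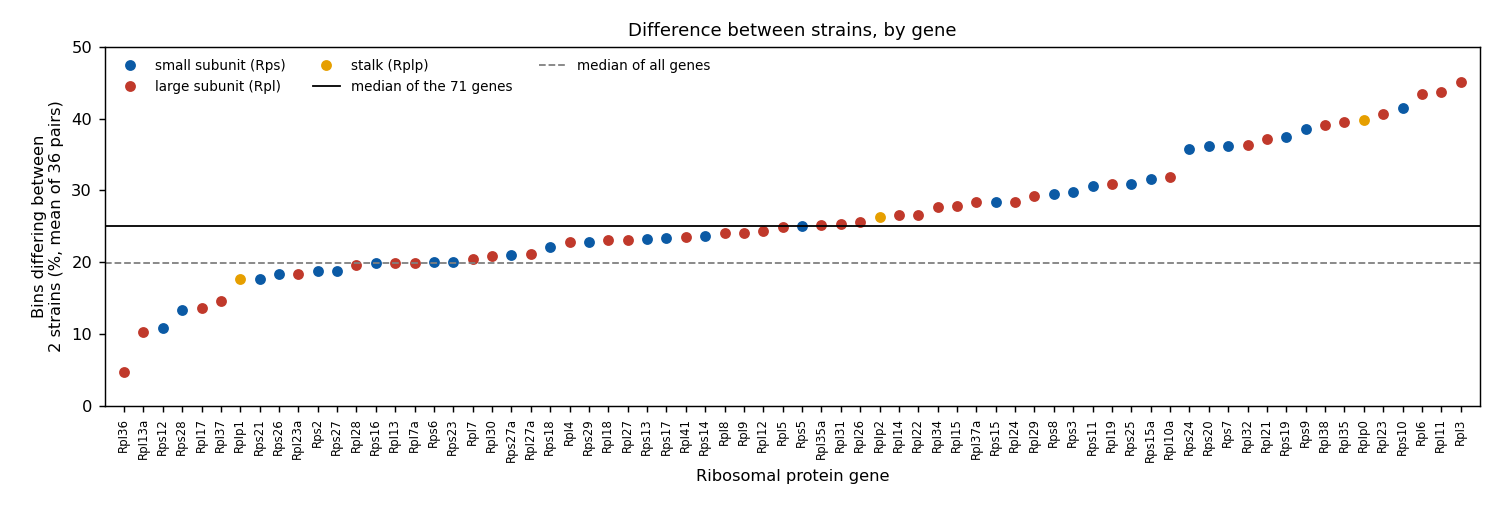
Percentage of bins that differ between 2 strains, averaged over 36 pairs (vertical axis), for 70 of the 71 ribosomal protein genes (horizontal axis, ordered by value and coloured by subunit). Rpl36 is lowest (4.69%) and Rpl3 highest (45.1%), and small- and large-subunit genes are mixed along the order, around a median of 25%.

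PWK/PhJ stood apart from the other strains in these genes. It alone differed from the 8 others, which agreed among themselves, in 136 bins (6.59%), compared with 7 bins in 129S1/SvImJ, the lowest, and 44 in CAST/EiJ, the next highest. In 57 of the 136 bins the others had state 9 and PWK/PhJ had state 14, and in 33 the others had state 8 and PWK/PhJ had state 6. State 9 was low and state 14 high in PWK/PhJ over all genes as well, at 0.514% and 72.2%. Relative to all genes of the same strain, state 9 was 10.8 times as frequent in the ribosomal protein genes of PWK/PhJ, within the 7.23 to 12.4 times of the other strains. The ratios of states 14 and 6 lay outside those of the other strains, at 0.259 against 0.0447 to 0.144 for state 14 and at 1.64 against 0.0692 to 0.665 for state 6. So did those of state 8, at 19.9 against 11.6 to 18.9, and of state 2, at 0.438 against 0.0158 to 0.277. Without PWK/PhJ the mean share of state 9 in the 71 genes was 14.8%, that of state 14 was 6.86%, and the median difference between strains was 23.5%.

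C57BL/6J was the strain with the most bins in states otherwise nearly missing here. Rpl38, needed for the translation of certain Hox mRNAs, had 4 bins in state 13 in C57BL/6J and 1 bin in state 12 in WSB/EiJ. Rpl19 had 3 bins in state 13, with 1 bin each in states 5 and 12, in C57BL/6J, 2 in state 13 in NZO/HlLtJ, and 1 bin each in states 11 and 12 in NOD/ShiLtJ. Rpl26 had 2 bins in state 5 and 1 in state 11 in C57BL/6J. Without padding the share of state 13 was 0, so the state 13 bins of Rpl38 and Rpl19 all lay in the 1-kb flanks.

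Many introns of this family host small nucleolar RNAs, which guide the modification of ribosomal RNA. Of the 71 genes, 26 held 53 of the 1340 annotated snoRNA genes. The share of all protein-coding genes that hold one is not given here. The median difference between strains was 23.8% for the 26 genes with snoRNA genes, against 25.3% for the 45 without.

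Related genes were set beside these. The 4 X-linked cytosolic ribosomal protein genes, Rpl10, Rpl36a, Rpl39 and Rps4x, had state 3 in all 9 strains in 0 of 4, against 6.83% of all 966 X-linked protein-coding genes. Their bins were in state 5 (39.3% ± 5.25), state 12 (23.6% ± 3.29), state 13 (22.2% ± 6.15) and state 11 (10.8% ± 6.54), and none was in state 1, 8 or 9. The start bin of Rpl10 was in state 5 in all 9 strains, and those of Rpl39, Rps4x and Rpl36a were in state 5 in 8 of 9 and in state 3 in NOD/ShiLtJ, PWK/PhJ and WSB/EiJ, respectively. Over all X-linked protein-coding genes state 13 covered 87.6% ± 1.37 and state 5 covered 2.09% ± 0.295 of the bins, and of the 817 with an annotated start 77 had state 5 at the start in at least 8 strains. Among the 51 autosomal genes none had state 5 at the start in any strain.

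Processed copies differed from the parent genes, and paralogues varied among themselves. Processed copies, which arise by insertion of a reverse-transcribed mRNA, numbered 282, with a median length of 539.5 bp. State 3 was found in at least 1 strain in 11 of the 282, against 12315 of the 20665 autosomal protein-coding genes. State 14 covered 80.0% ± 2.05 of the bins of the copies. How reads shared by a gene and its copies were placed is not given in the sources used here, and its part in the state calls was not tested. Of 8 paralogues, 5 had state 3 in all 9 strains. Rpl10l and Rpl39l were in state 14 throughout, while Rpl22l1 had state 3 in 14.8% and state 14 in 2.65% of its bins.

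Other parts of the protein synthesis machinery had state 3 as regularly but in smaller proportion. The 78 mitochondrial ribosomal protein genes had it in all 9 strains in 78 of 78, the 27 translation factors and other genes with oligopyrimidine mRNAs in 27 of 27, and the 24 ribosome biogenesis genes in 23 of 24. Their bins were in state 1 in 12.7%, 13.1% and 10.5% and in state 14 in 52.4%, 45.6% and 51.4%, and their median lengths were 7691, 11645 and 11712 bp, so gene length differs along with these shares. Hepatocyte marker genes (Alb, Apoa1, Apob, Ttr, Cps1, Ass1, Fgb and Hnf4a) had state 3 in all 9 strains in 8 of 8. They differed from the ribosomal protein genes in state 2, with 34.7% ± 5.72 against 0.867% ± 0.476, and in state 9, with 0.168% ± 0.167 against 13.8% ± 3.90. Their median length was 27472 bp, so gene length differs here too. Among the 8 markers, state 2 ran from 0% in Apoa1 (1840 bp) to 56.6% in Ass1 (50401 bp). Of 12 markers of endothelium, Kupffer cells and leukocytes, and bile duct and stellate cells, none had state 3 in all 9 strains, although the endothelial genes Clec4g and Stab2 had it in 6 and Pecam1 in 5.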

How the data were processed

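The data are chromatin segmentations of hepatocytes from 9 strains, deposited by the authors as 1 file per strain, with a state number for each 200-bp bin. The state column holds a category, not a quantity, and the read depth behind it is unknown. The build mm10 and the tools FastQC 0.11.5 and MACS 1.4.2 are named, without their roles, in the submitters' processing notes. The segmentation tool and the marks of each state are not given in the sources used here. Gene spans were taken from RefSeq (GRCm38.p6) and padded by 1 kb, all bins they touch were counted (5 bins lie under 2 of the 71 genes), and shares were averaged over strains (Python 3.11.15, numpy 2.4.6, pandas 2.3.3). A start and strand were known for 51 of the 71 genes from the RefSeq promoter table. For the 8 with more than 1 start the outermost was used.

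No p-value is given, since each strain has 1 segmentation. Counts of genes stand beside the same count over all autosomal protein-coding genes. The code recovered 5 of 5 quantities planted in simulated segmentations. The genes, the comparison lists and the states described were chosen with earlier results of these data known. Named genes were the 6 most and 6 least different between strains, the 4 longest and 4 shortest in state 3, those with states 5, 7, 11, 12 or 13, and the fixed examples Rplp0, Rplp1, Rplp2, Rps6 and Rpl3. Others (Rps9, Rpl22 and Rpl5) were named after their values were seen. The combined file of all strains repeats the strain files and was not used. One gene of the family and some related genes are not reported by name.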

Additional observations from a re-analysis of the deposited data

Results flagged for a closer look

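Over the 71 ribosomal protein genes, PWK/PhJ lay far from the other 8 strains in 6 of 13 measures by Dixon's criterion for outlying values, where chance would give about 0.65. These measures are related, since they count the same bins, and the criterion screens single values without a measure of the spread between mice. State 6 covered 7.03% of the bins in PWK/PhJ, and the next highest strain had 2.86%. State 9 covered 5.52%, and the next lowest strain had 12.2%. State 14 covered 18.7%, and the next highest strain had 10.1%. States 1, 3, 8 and 9 together covered 70.9%, and the next lowest strain had 83.5%. PWK/PhJ differed from another strain in 34.9% of the bins on average, and the next highest value was 27.5%. The bins in which PWK/PhJ alone differed made up 6.59%, and the next highest strain had 2.13%. What sets this segmentation apart was not tested.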

How the results depend on the processing

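Leaving out each strain in turn moved 0 of 153 values by more than the spread between strains, and of 81 other alternatives 25 did. A mean over the strains cannot move by more than this spread when 1 strain is left out. The count of genes with state 3 in all strains cannot fall. For these values the 0 is therefore no sign of stability. The differences from all genes kept their sign. Shares, medians and the count of genes have no direction that could reverse. Without 1 strain, the shares of the ribosomal protein genes ran as follows: state 1 34.0% to 35.0%, state 2 0.751% to 0.969%, state 3 16.03% to 16.6%, state 4 1.42% to 1.70%, state 6 1.98% to 2.82%, state 8 21.0% to 22.5%, state 9 13.1% to 14.8%, state 13 0.0121% to 0.0545% and state 14 6.86% to 8.81%. The differences from all genes, in percentage points, ran from 29.4 to 30.3 (state 1), 15.1 to 15.6 (state 3), 19.7 to 21.1 (state 8), 11.9 to 13.3 (state 9) and -61.7 to -60.2 (state 14). The state 13 share rests on C57BL/6J, without which it is 0.0121%. The median state 3 run stayed between 800 and 825 bp, the median difference between strains between 23.5% and 25.96%, and the count with state 3 in all strains at 71.

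With padding of 2 kb, state 1 took 30.8%, state 2 1.47%, state 3 13.1%, state 4 2.80% and state 13 0.184% of the bins, the differences from all genes became 25.9 (state 1), 12.1 (state 3) and -56.5 (state 14), and the median difference between strains rose to 29.4%. With no padding, state 3 took 18.3% (difference 17.5) and state 4 0.771%. Against genes no longer than the longest member, the differences were 21.1 (state 1), 11.6 (state 3), 6.20 (state 9) and -38.1 (state 14). In bins within 1 kb of the start or ends they were 23.1 (state 1), 17.3 (state 3), 5.68 (state 8), 4.44 (state 9) and -30.6 (state 14). With each gene weighted equally, they were 8.75 (state 9) and -51.9 (state 14). When a match in a neighbouring bin counted, the median difference between strains was 13.9%. Among genes with 1 annotated start, 98.4% had state 3 at the start. The cause of these changes was not tested. States 6, 8 and 9 and the genes with 1 start were added after seeing the data. No paired analysis was possible because the 13 libraries of a strain enter 1 segmentation, which gives no value per mouse.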
